A study of Mus musculus with 20 samples.

Results

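The mitochondrial carriers of the SLC25 family and the uncoupling proteins *Ucp1* and *Ucp3* were read in RNAseq of mouse pancreatic islets. Members were taken by symbol: every protein-coding gene whose symbol starts with Slc25a, plus *Ucp1* and *Ucp3*, without *Slc25a11*, *Slc25a12*, *Slc25a13*, *Slc25a22*, *Slc25a33* and *Slc25a36*. This gave 43 genes, of which 41 are among the 28632 genes of the count table, and *Slc25a21* and *Slc25a54* were not analysed here. The islets came from 12-week-old mice of both sexes on the C57BL/6N background and were kept in culture for 24 hours before RNA was collected. The 4 groups were 6 Ctrl, 4 β-Mfn1KO (*Ins1*-Cre with *Mfn1* loxP/loxP), 5 β-Mfn2KO (*Ins1*-Cre with *Mfn2* loxP/loxP) and 5 β-Mfn1/2DKO (*Ins1*-Cre with both genes floxed on both alleles) libraries. Mitofusin 1 and 2, the products of *Mfn1* and *Mfn2*, fuse the outer membranes of mitochondria. *Ins1*-Cre deletes a floxed exon in β-cells, so the other cells of an islet keep both genes. The labels call the Ctrl mice wild type, while the study's methods combine *Ins1*-Cre carriers with mice that have floxed alleles but no Cre.

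SLC25 carriers are proteins of the inner mitochondrial membrane that exchange solutes such as ADP for ATP, phosphate, citrate, acylcarnitines, amino acids, glutathione, cofactors and iron between cytosol and matrix. Uncoupling proteins belong to the same family and let protons back into the matrix. In β-cells, ATP made in the matrix leaves through the adenine nucleotide carriers and closes the potassium channels that trigger insulin release, and carriers of citrate and other carboxylates link mitochondria to the cytosolic signals that accompany it.

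The targeted genes were lower in the groups labelled as their knockouts. *Mfn1* stood at 1670.2 ± 114 normalized counts in Ctrl, 674 ± 68.1 in β-Mfn1KO, 1721 ± 49.5 in β-Mfn2KO and 797 ± 165 with both lost, and *Mfn2* stood at 3505 ± 519, 4352 ± 334, 1577 ± 80.5 and 2084 ± 45.1 in the same order. A value after ± is the SD over the 6 Ctrl, 4 β-Mfn1KO, 5 β-Mfn2KO or 5 β-Mfn1/2DKO libraries throughout. Normalized counts were brought by TMM scaling in edgeR to a common library of 41.4 M counts. Depth went with genotype: Ctrl libraries held 12.4 to 20.3 M counts, β-Mfn1KO 15.7 to 16.7 M, β-Mfn2KO 15.1 to 59.5 M and β-Mfn1/2DKO 65.5 to 122.9 M. Among β-Mfn2KO libraries, replicates 4 and 5 held 56.0 and 59.5 M and the other three 15.1 to 18.9 M. Genes of acinar cells, the enzyme-secreting cells around islets, stood apart in some libraries: the mean log2 CPM of 20 acinar genes reached 8.06 (replicate 4) and 9.53 (replicate 5) among β-Mfn1/2DKO libraries and 6.98 in β-Mfn2KO replicate 4, against 0.946 to 5.07 in the other libraries. All 10 β-cell markers passed the test as lower in β-Mfn1/2DKO than in Ctrl, with a summed level of 64748 to 87864 CPM (counts per 1e6) against 146280 to 233866. All 8 endothelial markers passed as higher (235.1 to 360.1 CPM against 162 to 244). So did 19 of 20 acinar markers (483 to 46072 against 318 to 2010.2), though their median sum was 824 CPM in β-Mfn1/2DKO and 1033 in Ctrl. Also higher were 2 of 8 red blood cell and 1 of 5 skeletal muscle markers, while 1 of 6 α-cell markers passed as higher and 1 of 8 macrophage markers as lower. The part of these cells in the carrier values was not tested beyond the fits named below.

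The 4 stretches printed here lie before a RefSeq start site of the carriers whose level rose most (*Slc25a39* and *Slc25a20*) and fell most (*Slc25a29*) in β-Mfn1/2DKO. The fourth is that of *Slc25a14*, which also fell and whose promoter holds an E box. All are RefSeq promoter sequences on GRCm38.p6, read 5′ to 3′ on the strand of the gene, from up to 250 bases before the start site and cut where an annotated exon begins. The stretch of *Slc25a39* lies inside the annotated span of that gene (102402985 to 102407946), and the others lie outside theirs. Capitals mark GC boxes (GGGCGG on either strand) and the E box (CACGTG).
*Slc25a39* (chr11:102407545-102407767, minus strand): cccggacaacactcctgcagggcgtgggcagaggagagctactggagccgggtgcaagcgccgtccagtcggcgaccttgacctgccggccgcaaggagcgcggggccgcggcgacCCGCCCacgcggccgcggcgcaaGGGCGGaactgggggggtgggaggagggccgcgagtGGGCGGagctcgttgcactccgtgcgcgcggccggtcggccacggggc
*Slc25a20* (chr9:108661886-108662087, plus strand): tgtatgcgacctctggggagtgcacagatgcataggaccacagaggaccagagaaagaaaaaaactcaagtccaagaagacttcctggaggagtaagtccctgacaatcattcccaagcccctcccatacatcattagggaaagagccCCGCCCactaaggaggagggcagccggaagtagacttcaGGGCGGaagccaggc
*Slc25a29* (chr12:108835884-108836045, minus strand): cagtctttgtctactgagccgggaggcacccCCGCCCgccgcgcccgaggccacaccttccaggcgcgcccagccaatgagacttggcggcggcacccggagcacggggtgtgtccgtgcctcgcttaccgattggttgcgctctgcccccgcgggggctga
*Slc25a14* (chrX:48623198-48623412, plus strand): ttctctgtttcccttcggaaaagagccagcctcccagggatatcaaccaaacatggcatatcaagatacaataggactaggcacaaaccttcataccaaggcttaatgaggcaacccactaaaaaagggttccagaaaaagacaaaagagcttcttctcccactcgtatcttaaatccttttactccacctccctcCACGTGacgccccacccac
The stretch of *Slc25a39* is 77.1% G or C and holds 3 GC boxes, that of *Slc25a20* is 54.0% and holds 2, that of *Slc25a29* is 71.6% and holds 1, and that of *Slc25a14* is 46.5% and holds none. Of the 41 genes, 30 had a promoter of 300 bases in the RefSeq table, 37 promoters in all. An E box was found in 5 of the 37 promoters, those of *Slc25a1*, *Slc25a14*, *Slc25a15* and *Slc25a31*, and in 7.15% of all 32851 promoters searched. A GC box, searched for after the sequences were seen, was found in 32 of the 37 promoters (26 of the 30 genes) and in 35.7% of all promoters. The letters of an NRF1 site (GCGCATGCG), an ATF4 composite element (TGATGNAAT) and an estrogen related receptor element (TCAAGGTCA) were found on neither strand of the 30 genes, and in 1.75%, 0.965% and 0.423% of all promoters.

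The carriers of Ctrl islets covered a wide range of levels, and a few genes held most of the summed level. Per kilobase of exon, the adenine nucleotide translocases *Slc25a5* and *Slc25a4*, which exchange ADP for ATP, stood highest at 131 ± 3.78 and 127 ± 8.79 CPM per kilobase, and these neighbours in the order did not differ beyond their spread. They were followed by the glutathione carrier *Slc25a39* at 67.9 ± 3.69, the phosphate carrier *Slc25a3* at 60.5 ± 2.73 and the citrate carrier *Slc25a1* at 50.4 ± 2.05 CPM per kilobase. These 5 genes held 69.2% of the level summed over the 41 genes. In β-Mfn1/2DKO *Slc25a39* rose to 98.5 ± 10.7 CPM per kilobase, beside *Slc25a4* at 121 ± 8.56 and *Slc25a5* at 131 ± 13.4. At the low end, *Ucp1* and *Ucp3* stood at 0.0568 and 0.0221 CPM per kilobase in Ctrl. With the length of the longest transcript in place of all exons, the first 5 kept their order in Ctrl, while in β-Mfn1/2DKO *Slc25a39* (161 CPM per kilobase) stood above *Slc25a4* (148), so their order there depends on the length used.

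**Figure D1:**
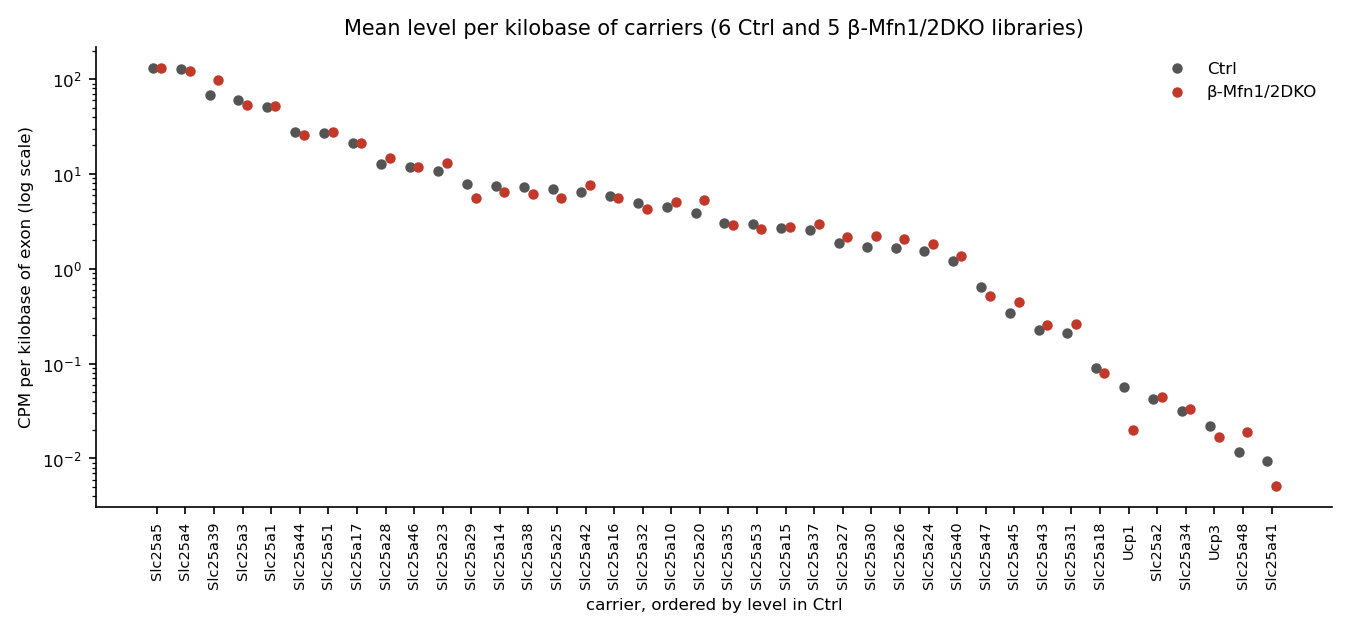
Mean level of carriers in CPM per kilobase of exon, on a log axis, for 6 Ctrl (grey) and 5 β-Mfn1/2DKO (red) libraries, ordered by the level in Ctrl. *Slc25a5*, *Slc25a4*, *Slc25a39*, *Slc25a3* and *Slc25a1* stand highest and together hold 69.2% of the summed level in Ctrl, and *Slc25a41* stands lowest.

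The summed level of the 41 genes was 2004 ± 27.8 CPM in Ctrl, 2065 ± 64.3 in β-Mfn1KO, 2032 ± 34.8 in β-Mfn2KO and 2048 ± 101.5 in β-Mfn1/2DKO. The ranges of all 4 groups overlapped. With libraries scaled by their total count alone, the sum was 1955 ± 92.9 in Ctrl and 2200.2 ± 166 in β-Mfn1/2DKO. That scaling moves the median log2 fold change of all expressed genes from 0.04 to 0.17, so a change under it is read relative to 0.17.

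Single loss of either mitofusin moved no carrier past the test. In β-Mfn1KO against Ctrl 0 of 41 genes passed an adjusted p under 0.05 (edgeR's quasi-likelihood test, Benjamini-Hochberg over 28632 genes), where 0.0279% of all genes passed, and 4 of the 41 had an unadjusted p under 0.05. In β-Mfn2KO against Ctrl 0 of 41 passed, against 0.0559% of all genes, and 2 had an unadjusted p under 0.05. DESeq2 also called 0 in both. Among the 33 carriers with enough counts for edgeR's filterByExpr, the smallest adjusted p was 0.530 for *Slc25a37* in β-Mfn1KO and 0.925 for *Slc25a32* in β-Mfn2KO.

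Loss of both mitofusins was accompanied by changes in 13 of 41 carriers against Ctrl (31.7%), 7 higher and 6 lower, where 16.5% of all genes passed, 9.59% as higher and 6.86% as lower. All 13 were among the 33 carriers kept by filterByExpr, and 29.3% of all genes so kept passed. The changes were small: 0 of the 13 exceeded a fold change of 1.5 either way (5.21% of all genes passed with that rule added), and the median log2 fold change was 0.02 over the 41 carriers and 0.06 over all genes. In 9 of the 41 the libraries of both groups did not overlap, against 10.6% of all genes. The 20 filtered-in carriers that did not pass had log2 fold changes from −0.31 (*Slc25a47*) to 0.39 (*Slc25a45*), and the 8 with too few counts were *Ucp1*, *Ucp3*, *Slc25a2*, *Slc25a18*, *Slc25a34*, *Slc25a41*, *Slc25a43* and *Slc25a48*. The carriers higher in β-Mfn1/2DKO handle glutathione, acylcarnitine, S-adenosylmethionine, ATP-Mg, coenzyme A and iron or are the uncoupling protein relative *Slc25a30*. Those lower handle basic amino acids, glycine, folate, phosphate and ATP-Mg or are the uncoupling protein relative *Slc25a14*. In bulk islet RNA, fewer cells of a type and less RNA per cell cannot be told apart.

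**Figure D2:**
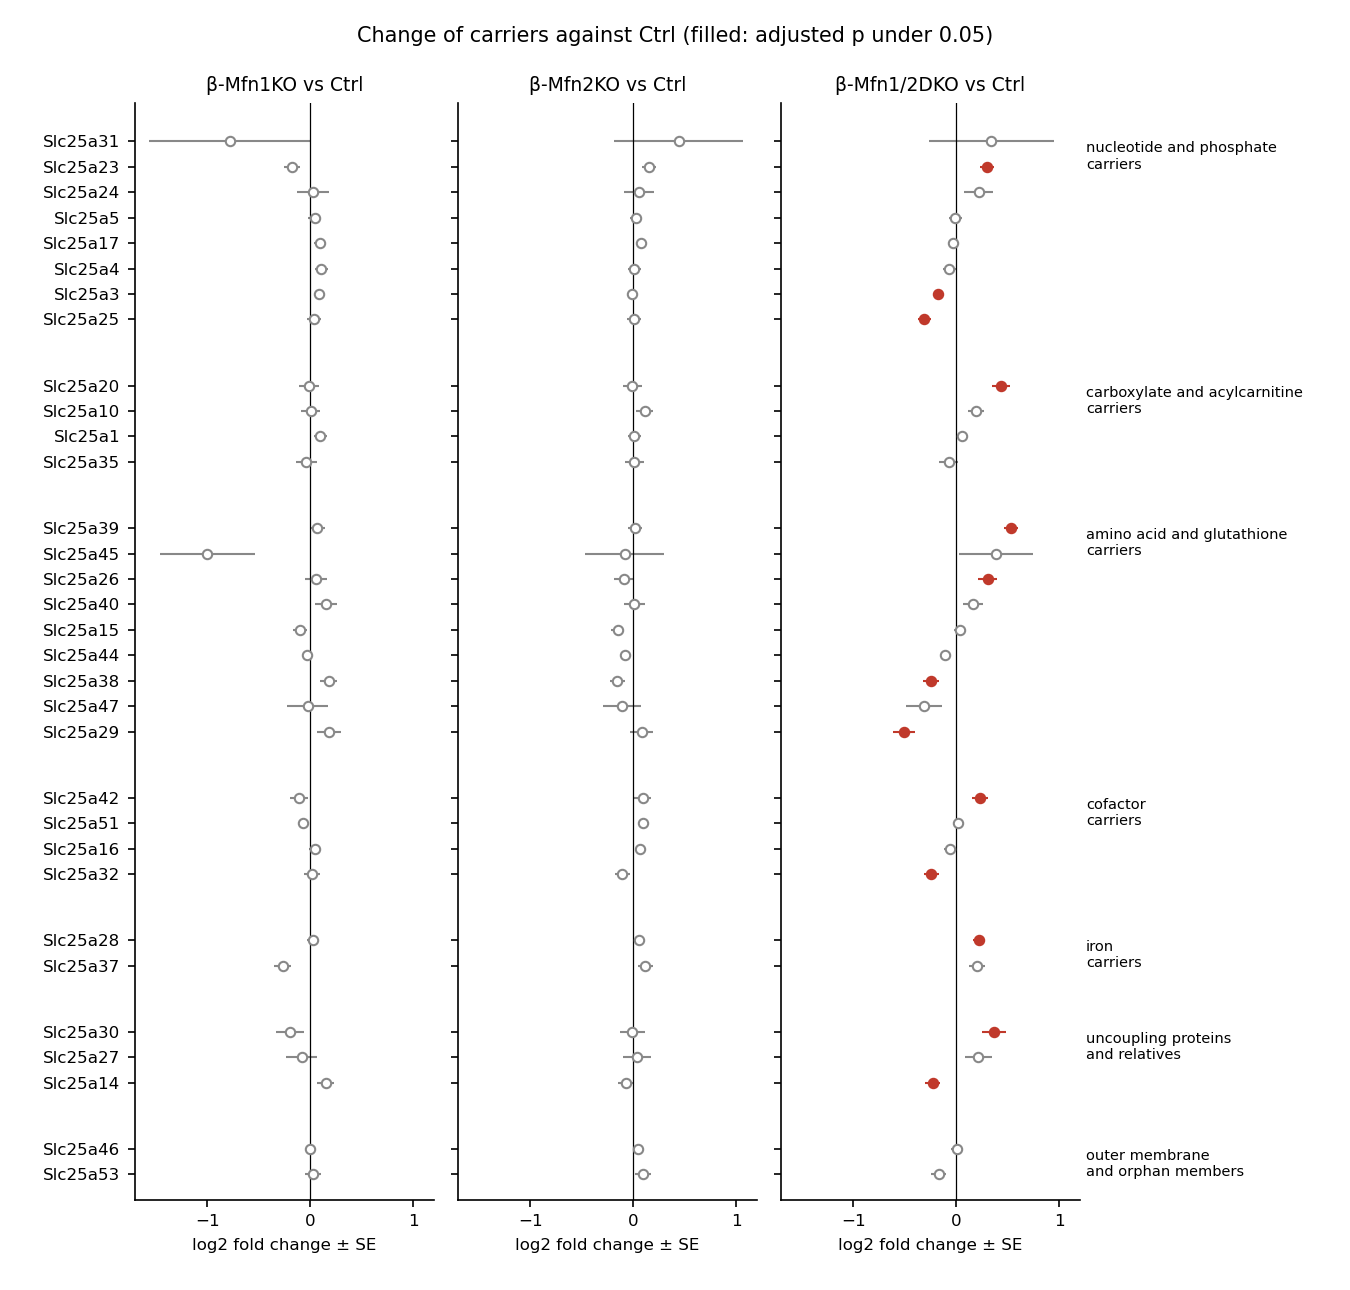
Log2 fold change with its standard error for carriers kept by filterByExpr, grouped by substrate, in β-Mfn1KO, β-Mfn2KO and β-Mfn1/2DKO against Ctrl. Filled red points passed an adjusted p under 0.05: none in the single knockouts and 13 in β-Mfn1/2DKO, from *Slc25a29* at −0.50 to *Slc25a39* at 0.54.

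Amino acid and glutathione carriers held both extremes. Of the 12 genes placed in this set, 2 passed as higher in β-Mfn1/2DKO than in Ctrl, 2 as lower and 8 did not pass. The median log2 fold change of the 12 was 0.04. *Slc25a39* (ENSMUSG00000018677, GRCm38 chromosome 11, 102402985 to 102407946, minus strand) brings glutathione into the matrix. It ran from 7334 to 8558 normalized counts in Ctrl, with a median of 7649, and stood at 11452, 12497, 11548, 11501 and 9189 in β-Mfn1/2DKO. The single knockouts were at 8360.3, 8298, 7182 and 8646 (β-Mfn1KO) and 8063, 7534, 8229, 7663 and 7712 (β-Mfn2KO). Every β-Mfn1/2DKO library stood above every other library, with replicate 5, one of the pair rich in acinar RNA, the lowest. The level was 45.1% higher than in Ctrl (log2 fold change 0.54, SE 0.07, adjusted p = 5.5e-06). It passed under all 32 alternatives to this fit, leave-outs included, and depth class as a covariate (libraries over 40 M counts against the rest) left it at 0.58 (adjusted p = 0.011). Only β-Mfn2KO held libraries of both depth classes, so the depth term rests on its replicates 4 and 5 against its other libraries. *Slc25a40*, a close relative that also moves glutathione, averaged 471 ± 33.2 in β-Mfn1/2DKO against 421 ± 35.4 in Ctrl and did not pass (0.16, SE 0.10, adjusted p = 0.308). Per kilobase, *Slc25a39* made up 98.2 ± 0.138% of the pair's level in Ctrl and 98.6 ± 0.140% in β-Mfn1/2DKO (SD).

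*Slc25a29* (ENSMUSG00000021265, chromosome 12, 108825873 to 108835883, minus strand) carries arginine, lysine and other basic amino acids. In Ctrl it ran from 732 to 947 normalized counts with a median of 847, and in β-Mfn1/2DKO it stood at 659, 692, 672, 507 and 459. It was at 955, 965, 819.6 and 1117 in β-Mfn1KO and at 1064, 938, 878, 836 and 796 in β-Mfn2KO. The β-Mfn1/2DKO libraries lay below all others, lowest in the pair rich in acinar RNA, and in β-Mfn2KO the 2 deep libraries were the lowest of the group. The fall of 29.5% (log2 fold change −0.50, SE 0.11, adjusted p = 0.0022) became −0.31 without that pair (adjusted p = 0.043) and −0.27 with depth class as a covariate (adjusted p = 0.57).

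*Slc25a26* brings S-adenosylmethionine, the methyl donor, into mitochondria. It ran from 298 to 386 in Ctrl (median 321) and stood at 379.7, 377, 424, 448 and 422 normalized counts in β-Mfn1/2DKO, where 2 libraries overlapped the highest Ctrl library. The difference was 0.31 (SE 0.09, adjusted p = 0.027). *Lrig1* overlaps it on the opposite strand, sharing 144 exon bases and holding 446% of its counts, and whether counting used strand is unknown here, so its value is uncertain. *Slc25a38*, which supplies glycine for heme synthesis, ran from 700.5 to 975 in Ctrl (median 803) and stood at 675, 728, 699, 673 and 703 in β-Mfn1/2DKO, all below every Ctrl library but the lowest. It fell by 0.24 on the log2 scale (SE 0.07, adjusted p = 0.027). The calls of *Slc25a26* and *Slc25a38* were each lost when any of 6 single Ctrl or β-Mfn1/2DKO libraries was left out and when both acinar-rich β-Mfn1/2DKO libraries were (adjusted p = 0.13 and 0.15). Among the genes of this set that did not pass, the branched-chain amino acid carrier *Slc25a44* and the ornithine carrier *Slc25a15* had log2 fold changes of −0.11 (SE 0.05) and 0.04 (SE 0.06). *Slc25a2*, *Slc25a18* and *Slc25a48*, also placed in the set, stood at 0 to 11.7 normalized counts over all libraries.

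**Figure D3:**
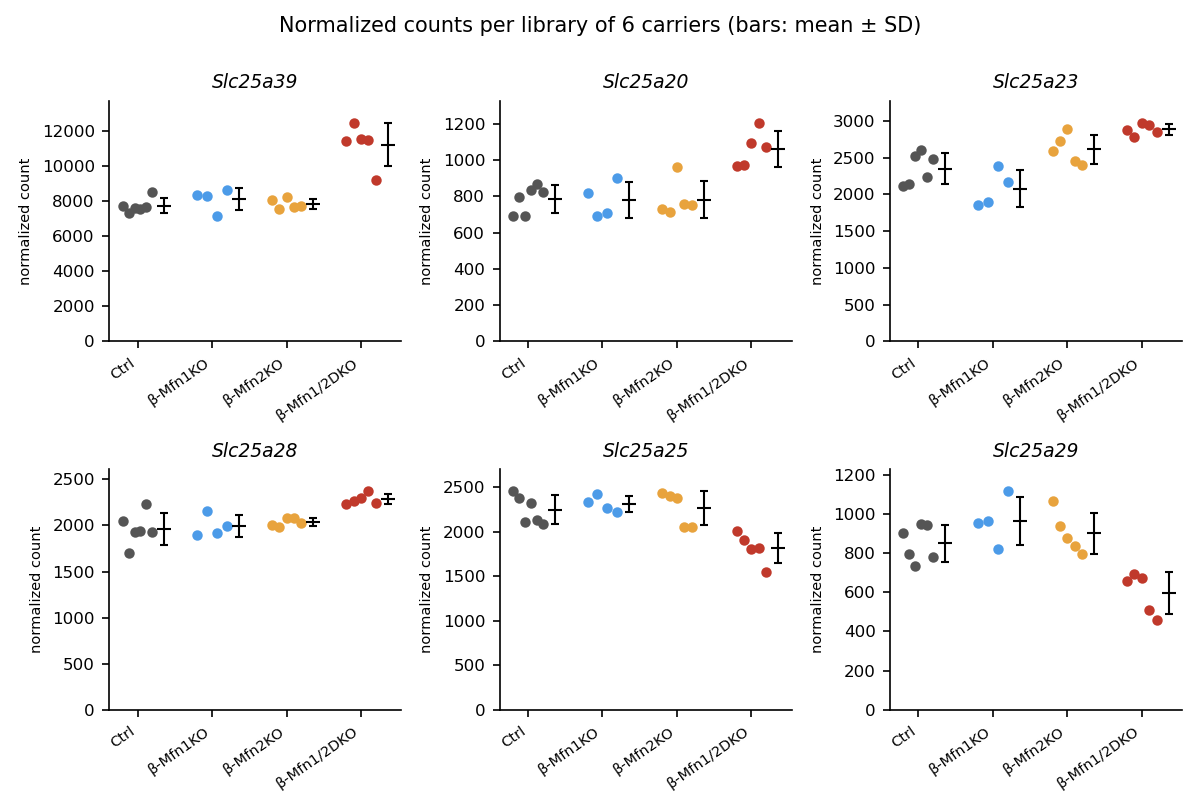
Normalized counts of 6 carriers in each of the 20 libraries, with the mean and SD of each group beside its points and each axis starting at 0. In these panels the β-Mfn1/2DKO points of *Slc25a39*, *Slc25a20*, *Slc25a23* and *Slc25a28* lie above all Ctrl points, and those of *Slc25a25* and *Slc25a29* below.

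Among carboxylate and acylcarnitine carriers, 1 of the 5 analysed passed as higher and 4 did not pass, with a median log2 fold change of 0.11. *Slc25a20* (ENSMUSG00000032602, chromosome 9, 108662088 to 108684641, plus strand) exchanges acylcarnitines for carnitine and so admits long-chain fatty acids to β-oxidation. In Ctrl it ran from 693 to 871 normalized counts with a median of 811, and in β-Mfn1/2DKO it stood at 969, 972, 1094, 1208 and 1072. The single knockouts stood at 818, 693, 710.3 and 901 (β-Mfn1KO) and 731, 713, 964, 759 and 751 (β-Mfn2KO). All β-Mfn1/2DKO libraries lay above all others, though the lowest was only just above β-Mfn2KO replicate 3. The level was 35.2% higher than in Ctrl (log2 fold change 0.44, SE 0.09, adjusted p = 0.0012) and passed under 31 of 32 alternatives, with depth class as a covariate the exception (0.52, adjusted p = 0.096). The citrate carrier *Slc25a1* and the dicarboxylate carrier *Slc25a10* did not pass. *Slc25a1* stood at 4517 ± 184 in Ctrl and 4689 ± 408 in β-Mfn1/2DKO (log2 fold change 0.05, 95% interval −0.06 to 0.17), and *Slc25a10* at 635 ± 87.3 and 724 ± 24.0 (0.19, interval 0.03 to 0.35, adjusted p = 0.113). *Slc25a35* had −0.07 (SE 0.09), with *Rangrf* on the opposite strand over 1151 of its exon bases, and *Slc25a34* stood at 0 to 12.2 normalized counts.

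Of the 9 nucleotide and phosphate carriers analysed, 1 passed as higher, 2 as lower and 6 did not pass, and their median log2 fold change was −0.03. Of the 3 calcium-regulated carriers of this set that exchange ATP-Mg for phosphate and were well counted, *Slc25a23* rose, *Slc25a25* fell and *Slc25a24* did not pass. *Slc25a23* (ENSMUSG00000046329, chromosome 17, 57043711 to 57059863, minus strand) ran from 2114 to 2599 normalized counts in Ctrl (median 2363) and stood at 2881, 2782, 2975, 2939 and 2842 in β-Mfn1/2DKO. In β-Mfn2KO it was at 2593, 2718, 2889, 2455 and 2398, and in β-Mfn1KO at 1856, 1889, 2387 and 2168. The β-Mfn1/2DKO libraries all lay above Ctrl and overlapped the upper β-Mfn2KO libraries. The rise of 22.8% (log2 fold change 0.30, SE 0.07, adjusted p = 0.0034) passed under all 32 alternatives, 0.47 with depth class as a covariate (adjusted p = 0.033). *Crb3*, on the opposite strand within its span, shares no exon base with it and held 62.4% of its counts, and its part in this value was not tested.

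*Slc25a25* (ENSMUSG00000026819, chromosome 2, 32414487 to 32451445, minus strand) ran from 2083 to 2457 in Ctrl (median 2231) and stood at 2005, 1909.8, 1799.6, 1813 and 1551 normalized counts in β-Mfn1/2DKO. It was at 2328, 2425, 2267 and 2218 in β-Mfn1KO and 2429, 2399, 2377, 2058 and 2049.9 in β-Mfn2KO. No β-Mfn1/2DKO library reached any other group, replicate 5 was the lowest, and the 2 deep β-Mfn2KO libraries stood below the other three. It was 19.2% lower than in Ctrl (log2 fold change −0.31, SE 0.07, adjusted p = 0.0018), −0.08 with depth class as a covariate (adjusted p = 0.83) and −0.17 under total-count scaling (adjusted p = 0.095). *Naif1* on the opposite strand shares 379 of its exon bases and held 15.3% of its counts, so with the strand setting unknown this value is uncertain. *Slc25a24* stood at 220.3 ± 24.0 in Ctrl and 257 ± 43.7 in β-Mfn1/2DKO and did not pass (adjusted p = 0.336). Per kilobase, *Slc25a23* took 51.9 to 58.9% of the level of the 3 genes in Ctrl libraries, 48.2 to 55.6% in β-Mfn1KO, 56.5 to 60.5% in β-Mfn2KO and 62.9 to 65.3% in β-Mfn1/2DKO, and *Slc25a25* took 32.7 to 40.6%, 35.6 to 42.0%, 32.5 to 35.9% and 24.0 to 29.7%. Being shares of the same library, these do not depend on how libraries were scaled, but they do depend on the length used. With the longest transcript, *Slc25a23* averaged 51.7% in Ctrl and 61.0% in β-Mfn1/2DKO, and *Slc25a25* 43.6% and 33.7%. In β-Mfn2KO the 2 deep libraries had the lowest *Slc25a25* shares, 32.8 and 32.5%.

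**Figure D4:**
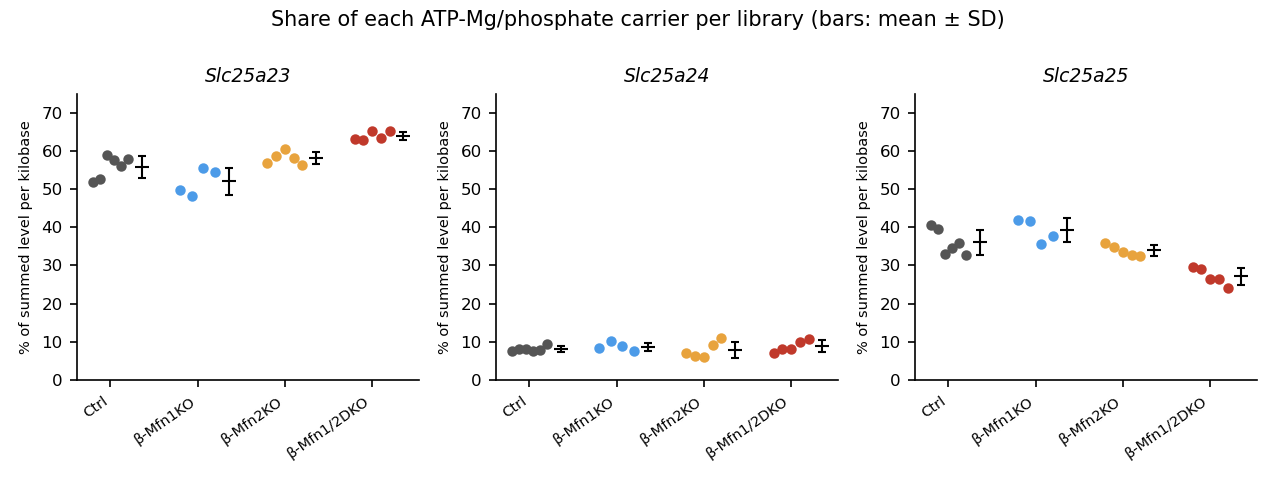
Share of *Slc25a23*, *Slc25a24* and *Slc25a25* in their summed level per kilobase of exon, in percent, for each library, with the mean and SD of each group. *Slc25a23* lies at 62.9 to 65.3% in β-Mfn1/2DKO, above every library of the other groups, and *Slc25a25* at 24.0 to 29.7%, below every library of the other groups.

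*Slc25a3*, the phosphate carrier that feeds ATP synthase, was the most counted carrier. It ran from 13126 to 14666 in Ctrl (median 14119) and stood at 12303, 13067, 11816, 12308 and 11962 normalized counts in β-Mfn1/2DKO, below Ctrl in every library by a small margin. The fall was 11.6% (log2 fold change −0.18, SE 0.05, adjusted p = 0.016), and it was lost without β-Mfn1/2DKO replicate 1, 3 or 4 and under total-count scaling (−0.04). The ADP/ATP translocases did not pass. *Slc25a4* stood at 12382 ± 856 in Ctrl and 11824 ± 834 in β-Mfn1/2DKO (log2 fold change −0.07, 95% interval −0.19 to 0.05; 0.07 under total-count scaling), and *Slc25a5* at 8958 ± 258 and 8919 ± 915 (−0.01, interval −0.12 to 0.11; 0.13 under that scaling). *Slc25a4* made up 49.1 ± 1.36% of the level of the pair per kilobase in Ctrl and 48.2 ± 0.896% in β-Mfn1/2DKO (SD). *Slc25a5* shares 19.8% of its stretches of 75 bases with other genes, *Gm5560* first, so its count is uncertain. *Slc25a17*, which serves peroxisomes, had −0.03 (SE 0.05).

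Of the 5 cofactor carriers, 1 was higher, 1 lower and 3 did not pass, with a median log2 fold change of −0.02. *Slc25a42*, a coenzyme A carrier, ran from 1486 to 1830.2 in Ctrl (median 1591) and was counted at 1868, 1575, 1863, 1995 and 2224 in β-Mfn1/2DKO, higher by 0.23 (log2; SE 0.08, adjusted p = 0.041). Its highest values were in the acinar-rich replicates 4 and 5, replicates 1 and 3 stood just above Ctrl, replicate 2 lay within it, and without replicates 4 and 5 it was 0.15 (adjusted p = 0.29). *Slc25a32*, which brings folate into mitochondria, ran from 1118 to 1462 in Ctrl (median 1225) and stood at 1009.8, 1049, 1089, 1064 and 1121 (−0.24, SE 0.07, adjusted p = 0.023). Only the highest β-Mfn1/2DKO library exceeded the lowest Ctrl library, and depth class as a covariate left −0.08 (adjusted p = 0.90). The other coenzyme A carrier of the list, *Slc25a16*, had −0.06 (SE 0.05; 0.08 under total-count scaling), and *Slc25a42* made up 52.8 ± 3.14% of the pair per kilobase in Ctrl and 57.7 ± 3.55% in β-Mfn1/2DKO (SD). The NAD carrier *Slc25a51* had 0.02 (SE 0.05).

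Of the 2 mitoferrins, which bring iron to the matrix for heme and iron-sulfur clusters, 1 passed as higher in β-Mfn1/2DKO. *Slc25a28* (ENSMUSG00000040414, chromosome 19, 43663801 to 43674881, minus strand) ran from 1701 to 2229.5 normalized counts in Ctrl (median 1933), and in β-Mfn1/2DKO it was at 2232, 2265, 2303, 2374 and 2248, all just above the highest Ctrl library. The difference of 16.5% (log2 fold change 0.22, SE 0.05, adjusted p = 0.0048) passed under 31 of 32 alternatives, all but depth class as a covariate (0.20, adjusted p = 0.36). *Slc25a37*, the mitoferrin of red cell precursors, averaged 742 ± 33.4 in β-Mfn1/2DKO against 645 ± 42.3 in Ctrl without overlap between the libraries, and did not pass (0.20, SE 0.07, adjusted p = 0.065), with −0.08 under depth class as a covariate. Among the 8 red blood cell markers, *Slc4a1* was at 0 in all Ctrl libraries, and the summed level of the 8 ran from 1.17 to 3.53 CPM in Ctrl and from 0.758 to 79.3 CPM in β-Mfn1/2DKO, and their part in *Slc25a37* was not tested.

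Of the uncoupling proteins and their relatives, *Slc25a30* passed as higher, *Slc25a14* as lower and the other three did not pass. *Slc25a30* ran from 262 to 464 in Ctrl (median 293) and stood at 389.6, 384, 373, 464 and 466 normalized counts in β-Mfn1/2DKO. One Ctrl library, replicate 6, stood among the β-Mfn1/2DKO values and the other five below them. This rise on the log2 scale was 0.37 (SE 0.12, adjusted p = 0.033), and 0.27 without the acinar-rich pair (adjusted p = 0.22). *Slc25a14* ran from 663 to 790.1 in Ctrl (median 749.5) and stood at 589, 707, 663, 604 and 599.98 in β-Mfn1/2DKO, with overlap between the groups (−0.23, SE 0.07, adjusted p = 0.038). Leaving out any of 10 single libraries ended its call. *Slc25a27*, found mainly in brain, stood at 307 ± 32.1 in Ctrl and 356 ± 57.7 in β-Mfn1/2DKO (0.21, SE 0.13). *Ucp1* and *Ucp3*, the uncoupling proteins of brown fat and muscle, stood at 0 to 8.46 and 0 to 8.37 normalized counts over all 20 libraries, too low for a difference to be detectable at this depth. The adipocyte markers summed to 2.80 to 12.0 CPM and the skeletal muscle markers to 1.05 to 6.03 CPM over all libraries.

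**Figure D5:**
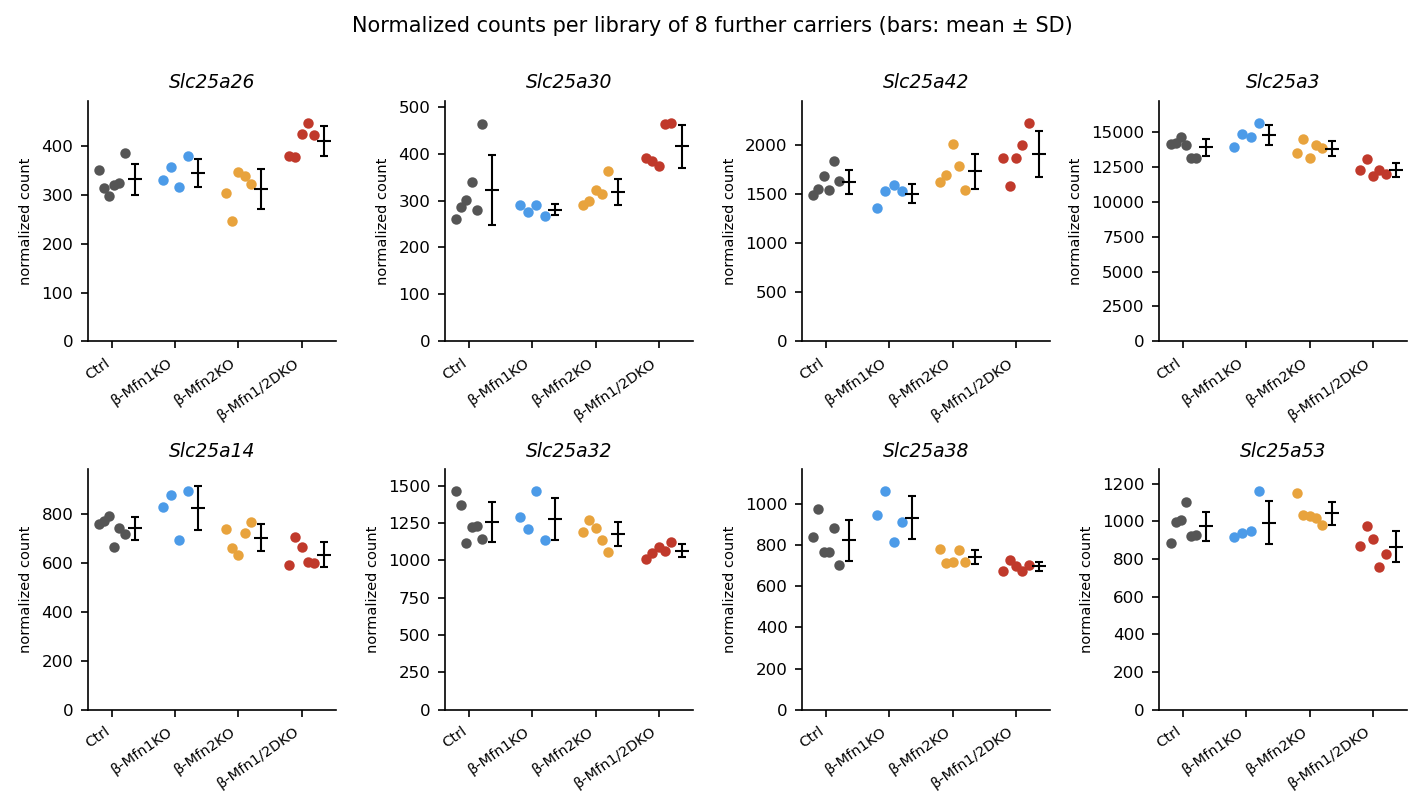
Normalized counts per library of the other 8 carriers that passed in β-Mfn1/2DKO against Ctrl or against β-Mfn2KO, with the mean and SD of each group and each axis starting at 0. The β-Mfn1/2DKO points overlap those of Ctrl in all panels but that of *Slc25a3*.

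The outer membrane and orphan members did not pass against Ctrl. *Slc25a46*, an outer membrane protein that takes part in mitochondrial dynamics, averaged 2655 ± 99.99 normalized counts in β-Mfn1/2DKO against 2645 ± 185 in Ctrl, a log2 fold change of 0.01 with a 95% interval of −0.09 to 0.11 (−0.02 with DESeq2 size factors). *Slc25a53* averaged 974 ± 77.6 in Ctrl and 866 ± 81.0 in the double knockout (−0.17, SE 0.07, adjusted p = 0.132).

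Against β-Mfn2KO, which shares the loss of *Mfn2*, 9 of 41 carriers passed in β-Mfn1/2DKO (22.0%), 5 higher and 4 lower, where 13.0% of all genes passed (7.09% as higher, 5.9% as lower; 23.0% of those kept by filterByExpr). Total-count scaling, under which the median log2 fold change of all expressed genes was 0.13, gave 8 higher and 1 lower. Both comparisons use the same β-Mfn1/2DKO libraries. In 9 of the 41 the libraries did not overlap, against 11.8% of all genes. The 5 higher were *Slc25a39* (0.52, SE 0.07, adjusted p = 2.5e-05), *Slc25a20* (0.44, SE 0.09, 0.0019), *Slc25a26* (0.39, SE 0.10, 0.0081), *Slc25a30* (0.38, SE 0.12, 0.041) and *Slc25a28* (0.17, SE 0.05, 0.047). The 4 lower were *Slc25a29* (−0.59, SE 0.11, adjusted p = 0.001), *Slc25a25* (−0.31, SE 0.07, 0.0028), *Slc25a3* (−0.17, SE 0.05, 0.035) and the orphan *Slc25a53* (−0.26, SE 0.08, 0.022). Of these *Slc25a29*, at 0.666 of the β-Mfn2KO level, was the one that also exceeded a fold change of 1.5 (3.84% of all genes passed with that rule). *Slc25a53* stood at 1148, 1036, 1028, 1017 and 981 in β-Mfn2KO and 868, 973, 904, 758 and 827 in β-Mfn1/2DKO, all below the lowest β-Mfn2KO library. *Zcchc18* lies on the opposite strand of it with 766% of its counts and shares none of its exon bases.

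β-Mfn2KO replicates 4 and 5 allowed a comparison within the deep libraries, though at 56.0 and 59.5 M counts they lay below every β-Mfn1/2DKO library. With only libraries over 40 M counts, 4 carriers passed, all higher in β-Mfn1/2DKO: *Slc25a39* (log2 fold change 0.60, adjusted p = 0.023), *Slc25a20* (0.54, 0.013), *Slc25a23* (0.30, 0.013) and *Slc25a28* (0.20, 0.0495). *Slc25a29* and *Slc25a25* had −0.40 (adjusted p = 0.21) and −0.13 (adjusted p = 0.49) in these 7 libraries. With all 20 libraries *Slc25a23* did not pass against β-Mfn2KO (0.15, adjusted p = 0.19), and it passed under 2 of the 33 alternatives. The 2 deep β-Mfn2KO libraries were the lowest of their group for it, and replicate 4 had the highest acinar score of that group. *Slc25a39* and *Slc25a20* passed under all 33 alternatives to the comparison with β-Mfn2KO. The calls of *Slc25a53* (β-Mfn2KO replicate 1, β-Mfn1/2DKO 1 or 4), *Slc25a3* (any β-Mfn2KO library, β-Mfn1/2DKO 1, 3, 4 or 5), *Slc25a30* (β-Mfn2KO 1 to 4, β-Mfn1/2DKO 4 or 5) and *Slc25a28* (9 libraries over all groups) were lost on removing the single libraries given.

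Whether losing *Mfn1* had another effect without *Mfn2* than with it was tested as an interaction, and 5 of 41 carriers passed (12.2%), where 5.92% of all genes did (2.88% with a higher and 3.03% with a lower difference). With a fold over 1.5 in addition 1 passed, *Slc25a29*, against 2.74% of all genes. *Slc25a39* (0.45, SE 0.10, adjusted p = 0.0079) and *Slc25a20* (0.45, SE 0.13, adjusted p = 0.046) had a higher log2 fold change for the loss of *Mfn1* where *Mfn2* was also lost. *Slc25a29* (−0.77, SE 0.16, adjusted p = 0.0057), *Slc25a25* (−0.35, SE 0.10, adjusted p = 0.033) and *Slc25a3* (−0.25, SE 0.07, adjusted p = 0.043) had a lower one. In β-Mfn1KO against Ctrl these 5 genes had log2 fold changes of 0.07, −0.01, 0.18, 0.04 and 0.09, and in β-Mfn1/2DKO against β-Mfn2KO 0.52, 0.44, −0.59, −0.31 and −0.17. The calls of *Slc25a39* held under all 31 alternatives and that of *Slc25a29* under 30, while those of *Slc25a25*, *Slc25a20* and *Slc25a3* held under 14, 10 and 10. Removing 1 library left 2 to 7 carriers passing: 2 without Ctrl replicate 5 or 6, β-Mfn1KO replicate 2, β-Mfn2KO replicate 1 or 2 or β-Mfn1/2DKO replicate 3, 4 or 5, and 3 without Ctrl replicate 4, β-Mfn1KO replicate 1 or β-Mfn2KO replicate 4. Total-count scaling, under which the median difference of all expressed genes was 0.16, gave 6 higher and 1 lower.

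Other transporters of mitochondrial solutes were read in the same islets. Of 20 listed, all kept by filterByExpr, 8 passed in β-Mfn1/2DKO against Ctrl, 5 higher and 3 lower, where 16.5% of all genes and 29.3% of those kept by filterByExpr passed. Their median log2 fold change was 0.08, against 0.06 over all genes. The outer membrane channels *Vdac3* (0.69, SE 0.09, adjusted p = 1.0e-05) and *Vdac1* (0.29, 0.08, 0.011) rose, as did the pyruvate carrier subunit *Mpc2* (0.24, 0.06, 0.011), the sideroflexin *Sfxn3* (0.33, 0.08, 0.0062) and *Ucp2* (0.30, 0.09, 0.034). Among those that fell were the sideroflexin *Sfxn2* (−0.67, 0.09, 1.4e-05) and the ABC transporter *Abcb6* (−0.30, 0.07, 0.005). In β-Mfn1KO and β-Mfn2KO 0 of the 20 passed, and 7 passed between β-Mfn1/2DKO and β-Mfn2KO, where 13.0% of all genes and 23.0% of those kept by filterByExpr did.

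Enzymes that use what the carriers move were read beside them, and 11 of 44 passed in β-Mfn1/2DKO against Ctrl, 6 higher and 5 lower, with a median log2 fold change of 0.05. This count lies between the 16.5% of all genes and the 29.3% of genes kept by filterByExpr, as 41 of the 44 were, so it does not set these enzymes apart. *Cpt1a*, which makes the long-chain acylcarnitines that *Slc25a20* carries, had the largest of these rises (0.85, SE 0.12, adjusted p = 1.7e-05). Glutathione synthetase *Gss* rose (0.37, SE 0.07, adjusted p = 9.8e-04) and glutathione reductase *Gsr* fell (−0.16, SE 0.05, adjusted p = 0.017). The mitochondrial adenylate kinase *Ak3* (0.31, SE 0.08), ferrochelatase *Fech* (0.21, SE 0.04), the last enzyme of heme synthesis, and hexokinase *Hk1* (0.46, SE 0.16) also rose. *Shmt2* (−0.43, SE 0.11, adjusted p = 0.0057), which makes glycine in the mitochondrial folate pathway, fell, as did *Bcat2* (−0.35, SE 0.09) and *Dbt* (−0.22, SE 0.06) of branched-chain amino acid breakdown and *Pank1* (−0.30, SE 0.08) of coenzyme A synthesis. In β-Mfn1KO and β-Mfn2KO 0 of the 44 passed.

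The 13 calls against Ctrl were split in strength. *Slc25a39* and *Slc25a23* passed under all 32 alternatives, *Slc25a20*, *Slc25a28* and *Slc25a29* under 31 and *Slc25a25* under 30. *Slc25a3*, *Slc25a26*, *Slc25a32*, *Slc25a38*, *Slc25a30*, *Slc25a42* and *Slc25a14* passed under 16 to 26. The alternatives include leaving out each β-Mfn1KO or β-Mfn2KO library, which is in neither group compared. Most of these fits returned the same 13 calls, so they add little to the tallies. Single libraries whose removal ended a call were β-Mfn1/2DKO replicates 1, 3 and 4 for *Slc25a3*. For *Slc25a26* they were Ctrl 2 to 5 and β-Mfn1/2DKO 4 and 5, for *Slc25a30* Ctrl 1, 2, 3 and 5 and β-Mfn1/2DKO 4 and 5, and for *Slc25a42* Ctrl 1, 2, 3, 4 and 6 and β-Mfn1/2DKO 4 and 5. For *Slc25a32* they were Ctrl 1 and 2 and β-Mfn1/2DKO 1 to 4, for *Slc25a38* Ctrl 1, 2 and 5 and β-Mfn1/2DKO 1, 3 and 4, and for *Slc25a14* Ctrl 1, 2, 3 and 5, β-Mfn2KO 3 and 5 and β-Mfn1/2DKO 1, 3, 4 and 5. Without β-Mfn1/2DKO replicate 4 alone, 6 carriers passed, namely *Slc25a20*, *Slc25a23*, *Slc25a25*, *Slc25a28*, *Slc25a29* and *Slc25a39*, and the same 6 passed without the acinar-rich pair. With depth class as a covariate 2 passed, *Slc25a39* and *Slc25a23*, in a fit whose depth term rests on the β-Mfn2KO libraries alone. Under total-count scaling 12 passed, 11 higher and 1 lower, against 7 and 6 with TMM, with 8 of the genes in common. The median log2 fold change of all expressed genes was 0.17 under that scaling, so this split is read relative to that shift.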

How the data were processed

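Islet RNA was sequenced as paired reads, 20 libraries in 4 groups taken from the labels. The authors trimmed reads with cutadapt 2.3, checked them with FastQC 0.11.8, aligned them with STAR 2.6.1b to GRCm38 and counted genes with RSEM 1.3.1. DESeq2 1.26.0 is also named in the submitters' processing notes. Genes were annotated here with GENCODE mouse release 21. The deposited table holds RSEM expected counts as whole numbers, without genes at 0 in all samples. The authors also deposited depth-normalized signal, used here only to recover their normalization factors. The strand setting is not given in the sources used here. Depth per library was 12.4 to 122.9 M counts, and no columns of the tables were left unused (0).

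Counts were fitted in R 4.3.3 with edgeR 4.0.16 (limma 3.58.1): TMM scaling, 1 quasi-likelihood fit over all 20 libraries with a coefficient per group and no covariate, and Benjamini-Hochberg adjustment over all 28632 genes, 53 of which had no symbol. A carrier passed at an adjusted p under 0.05. Intervals are the log2 fold change ± 1.96 SE. Alternatives were DESeq2 1.42.0, other scalings, filters, covariates, thinned counts, depth subsets and leaving out each library. Summaries and plots used Python 3.11.15, NumPy 2.4.6, pandas 2.3.3 and Matplotlib 3.10.9. The script was tested on simulated counts. Levels per kilobase used the union of exons. Overlaps with other genes and shared stretches of 75 bases were read from the annotation and transcripts. No pair of libraries agreed within sampling noise.

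Values in every library are given for carriers that passed in any of the comparisons between 2 groups; carriers that share a substrate, uncoupling protein relatives and the 5 of highest level are also named. The members and lists were chosen with earlier results of these data known. The GC box search and the fit without the 2 β-Mfn1/2DKO libraries of highest acinar score were added after seeing the data. A few genes that were fitted and counted are not reported here by name or drawn.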

Additional observations from a re-analysis of the deposited data

Results flagged for a closer look

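In 5 of 96 groups of 4 to 6 libraries tested, 1 library stood far from the others by Dixon's criterion, which chance meets in about 5 percent of groups. Ctrl replicate 6 was high for *Slc25a4* (14099 normalized counts, the other five at 11842 to 12235) and for *Slc25a39* (8558 against 7334 to 7739.6). β-Mfn2KO replicate 3 was high for *Slc25a20* (964 against 713 to 759) and low for *Slc25a27* (197 against 322 to 364). β-Mfn1KO replicate 4 was high for *Slc25a53* (1161 against 918 to 951).

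The effect of losing *Mfn1* differed between islets without and with *Mfn2* for 5 carriers by the interaction term of edgeR's fit. On the log2 scale the difference of the 2 effects was 0.45 for *Slc25a39*, 0.45 for *Slc25a20*, −0.77 for *Slc25a29*, −0.35 for *Slc25a25* and −0.25 for *Slc25a3*.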

How the results depend on the processing

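Of 13 carriers in β-Mfn1/2DKO against Ctrl, 9 in β-Mfn1/2DKO against β-Mfn2KO and 5 in the interaction, the counts fell to 2, 2 and 2 with depth class as a covariate, to 6, 4 and 2 without the 2 β-Mfn1/2DKO libraries of highest acinar score (chosen after seeing the data) and to 0, 1 and 1 with a fold change over 1.5 in addition. The authors' normalization factors gave 8 against Ctrl and 3 in the interaction, and only libraries over 40 M counts gave 4 against β-Mfn2KO. For the interaction, the acinar score as a covariate gave 2, DESeq2 11 and filterByExpr 10. Leaving out 1 library gave 6 to 13 against Ctrl (6 without β-Mfn1/2DKO replicate 4, 7 and 8 without Ctrl replicates 2 and 1), 5 to 10 against β-Mfn2KO (5 without β-Mfn2KO replicate 1 or β-Mfn1/2DKO replicate 4) and 2 to 7 in the interaction. Apart from these, the counts stayed within 1.5 times. The cause was not tested.

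The labels do not say whether replicate numbers pair the libraries. Of same-numbered pairs, 4 of 5 of β-Mfn1/2DKO and Ctrl deviated together with a correlation over 0.1 (−0.04 to 0.20), and 3 of 5 of β-Mfn1/2DKO and β-Mfn2KO. The mean correlation was 0.13 and 0.19 in these, against −0.03 and −0.05 for pairs of other numbers. For β-Mfn1KO and β-Mfn2KO with Ctrl it was 0.15 and 0.11, against −0.03 and −0.02. With the replicate number as a block, 13, 8 and 4 carriers passed.

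Carriers that changed sign against Ctrl had not passed. *Slc25a4* (0.0713), *Slc25a5* (0.133) and *Slc25a16* (0.0821) did so under total-count scaling, where the median of all expressed genes, 0.17, lay above each of these values. *Slc25a5* was also at 0.000252 with the replicate block, 0.0278 with the acinar score, 0.0718 without the 2 libraries of highest acinar score and −0.0244 to 0.05004 leaving out 1 library. Depth class turned *Slc25a24* (−0.282), *Slc25a37* (−0.0817), *Slc25a40* (−0.143), *Slc25a46* (−0.0409) and *Ucp3* (0.523), and counts drawn down to the smallest total turned *Slc25a24* (−0.00943), *Slc25a46* (−0.00495) and *Ucp3* (0.0686). *Slc25a46* was −0.0234 with DESeq2, −0.0246 with its size factors, −0.0127 with filterByExpr and −0.0228 to 0.0454 leaving out 1 library, and *Ucp3* −1.003 to 0.0117. Against β-Mfn2KO, *Slc25a24* (−0.0524), *Slc25a32* (0.00624) and *Slc25a37* (−0.026) turned in the deep libraries, and *Slc25a5* (0.0400) and *Slc25a24* (−0.00361) without the 2 libraries of highest acinar score.

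Among values of single carriers and summed levels, 673 values kept their direction and their side of the threshold, 33 changed sign, 88 lost their call, 11 gained one and 8 levels moved by more than the spread between replicates. Depth went with genotype, so the depth and the loss of both genes cannot be told apart. Within the deep libraries too, β-Mfn2KO held 56.0 and 59.5 M counts and β-Mfn1/2DKO 65.5 to 122.9 M.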

Other observations

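Within β-Mfn2KO, the 2 deep libraries (replicates 4 and 5) stood apart from the other three for some carriers. *Slc25a37* was at 754 and 808 normalized counts against 615 to 688, *Slc25a40* at 450.4 and 501 against 355 to 417, and *Slc25a24* at 247 and 302 against 183 to 209.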
